A study of Caenorhabditis elegans with 2 samples.

Results

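Regions occupied by JUN-1, the worm's JUN-type member of the bZIP transcription factors, were examined at 9 zip genes of Caenorhabditis elegans: zip-1, zip-2, zip-3, zip-4, zip-5, zip-7, zip-8, zip-10 and zip-11. The members were chosen by name, and all 9 were found among the 19973 protein-coding genes of the nuclear chromosomes (Ensembl release 115, WBcel235, which has the coordinates of build ce11). The data are ChIP-seq of whole L3 larvae of mixed sex from strain OP234, unc-119(ed3) III; wgIs234, where wgIs234 is an integrated transgene carrying eGFP-tagged jun-1. Both biological replicates belong to this 1 group, so no conditions were compared and no p-values are given. Values are averages over all cells of the animal, for a factor expressed from a transgene.

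The zip genes encode bZIP proteins, in which a basic region contacts DNA and the adjoining leucine zipper pairs 2 proteins into a dimer. JUN-type proteins bind as such dimers, classically to the AP-1 site TGACTCA or its other strand TGAGTCA. In C. elegans several zip genes are known from stress and infection: zip-1 acts in the response to intracellular pathogens, zip-2 in the response to blocked translation and bacterial infection, zip-3 limits the mitochondrial unfolded protein response, and zip-10 acts in death after cold shock. Whether a region near a zip gene alters its transcription was not measured.

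A gene's window ran from 5 kb upstream of its outermost 5′ end to the gene end, and a region was counted when it overlapped the window by at least 1 base. By this rule 6 of the 9 zip genes, namely zip-1, zip-2, zip-3, zip-4, zip-5 and zip-10, had a region in the authors' IDR list, which holds 2738 peaks. IDR stands for irreproducible discovery rate, which compares how replicates rank regions. A listed region need not rank alike in both, as 1 zip-2 region had rank 19685 in replicate 1 and 981 in replicate 2. A replicate region within 200 bp was found in both replicates for 2702 of the 2738 peaks. The same window held an IDR region in 20.7% of all coding genes. The 6 genes had 13 IDR regions between them, and each region had its nearest coding 5′ end at the zip gene itself. In zip-7, zip-8 and zip-11 no IDR region was listed.

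The sequences below are the 101 bases around the summits that lead zip-2, zip-5 and zip-1, and around the summits of zip-1 and zip-3 that had an AP-1 site or a CARE within 50 bp. They were read from the RefSeq genome of WBcel235 and are written 5′ to 3′ on the strand of the gene. Capitals mark the patterns searched, each on either strand. They were the AP-1 site, the CARE TGATGCAA (a C/EBP and ATF response element), the C/EBP-like pattern TTGCNNAA, the CRE TGACGTCA, the PAR site TTACGTAA, the GATA site TGATAA, the E-box CACGTG and the GAGA repeat GAGAGAGA. The rank is the place in the IDR list by signal value.
zip-2 rank 208, chrIII:833776-833876, plus strand: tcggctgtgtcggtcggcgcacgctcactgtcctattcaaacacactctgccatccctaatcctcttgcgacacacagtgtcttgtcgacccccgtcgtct
zip-5 rank 212, chrV:13269377-13269477, plus strand: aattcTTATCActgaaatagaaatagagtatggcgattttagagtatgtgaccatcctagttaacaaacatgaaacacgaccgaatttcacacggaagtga
zip-5 rank 423, chrV:13268175-13268275, plus strand: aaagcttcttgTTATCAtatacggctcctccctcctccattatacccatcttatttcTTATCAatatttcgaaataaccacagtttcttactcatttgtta
zip-1 rank 419, chrIII:12335552-12335652, plus strand: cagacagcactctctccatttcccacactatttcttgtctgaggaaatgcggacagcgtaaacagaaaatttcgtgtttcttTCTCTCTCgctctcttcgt
zip-1 rank 1799, chrIII:12334039-12334139, plus strand: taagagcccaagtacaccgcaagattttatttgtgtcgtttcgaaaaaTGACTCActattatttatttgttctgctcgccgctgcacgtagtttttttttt
zip-3 rank 2422, chrII:13954212-13954312, minus strand: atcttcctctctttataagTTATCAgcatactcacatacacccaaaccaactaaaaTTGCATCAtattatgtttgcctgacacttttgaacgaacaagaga

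At the zip-2 summit of rank 208 none of the searched patterns was within 50 bp, and its window had the highest GC content of the 13, 57.4%. Both zip-5 windows carried TTATCA, the other strand of the GATA site, and the window of rank 423 had it at 2 places. In zip-1 the AP-1 site TGACTCA lay at the weaker of its summits and began 2 bases before it. The stronger zip-1 summit had the GAGA repeat on its other strand, 32 bases downstream. The zip-3 summit had TTGCATCA, the other strand of the CARE, 6 bases downstream.

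The strongest regions belonged to zip-2, zip-5 and zip-1. The authors' signal value, a peak score whose scale is not stated, is used here only to rank regions within a list, and it ran from 31.4 to 474 over the IDR peaks with a median of 47.7. Each region was also looked up in the replicate lists, which hold 27417 regions (replicate 1) and 28475 (replicate 2). Read depth is not stated, which leaves the counting error of a signal value unknown.

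**Figure D1:**
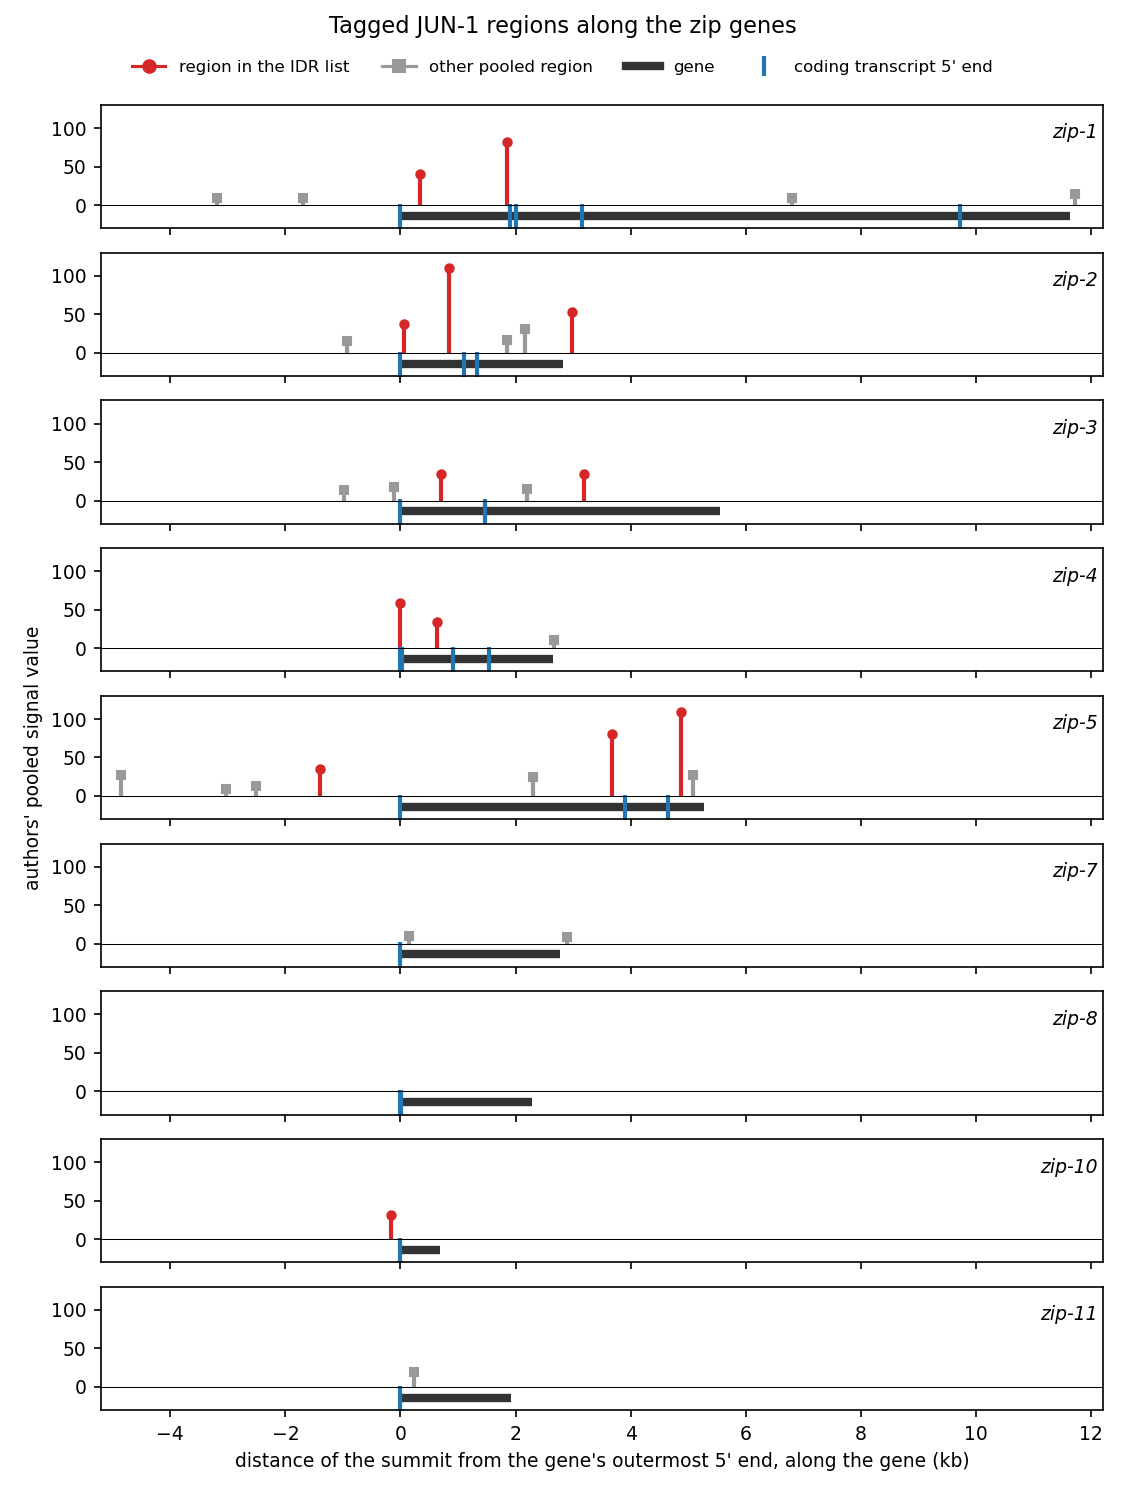
Regions of the pooled list at each zip gene, by the distance of the summit from the outermost 5′ end (kb, horizontal) and the authors' pooled signal value (vertical). Circles are IDR regions, squares are other pooled regions, black bars are the genes and blue marks are 5′ ends of coding transcripts. The tallest regions of zip-1, zip-2 and zip-5 stand inside the gene beside an internal 5′ end, and zip-8 has no region.

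In zip-2 (WBGene00019327, chrIII:832982-835814, plus strand) the strongest region was at 833631 to 834020. Its pooled signal value was 110.3, rank 208, with 56.4 in replicate 1 (rank 141) and 53.2 in replicate 2 (rank 328). Both replicates placed it among their strongest regions. The summit was in an intron, 844 bp downstream of the outermost 5′ end but 262 bp upstream of the 5′ end of transcript K02F3.4.1 and 479 bp upstream of that of K02F3.4.2.

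A second zip-2 region, at 835768 to 836157, had its summit past the end of the gene, in a coding exon of dos-3. Its pooled value was 53.3 (rank 1070), with 25.5 in replicate 1 and 30.0 in replicate 2. The third, at 832853 to 833242, was at the outermost 5′ end, in the 5′ UTR of zip-2 and in the lincRNA gene linc-37. Its pooled value was 37.2 (rank 2095), but the replicates were far apart. Replicate 2 had a value of 33.6 (rank 981) within 11 bp of the summit, whereas the nearest region of replicate 1 lay 170 bp away with 4.50 (rank 19685). This zip-2 region thus rested mainly on replicate 2.

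The zip-5 gene (WBGene00007932, chrV:13264545-13269827, plus strand) had 3 IDR regions, of which 2 stood near its internal 5′ ends. The strongest, at 13269232 to 13269621, had a pooled signal value of 109.5 (rank 212), with 31.1 in replicate 1 (rank 573) and 78.0 in replicate 2 (rank 112). Its summit was in an intron, 231 bp downstream of the 5′ end of transcript C34D1.5c.1. The next, at 13268030 to 13268419, had 81.1 (rank 423), with 29.6 and 54.0 in replicates 1 and 2. Its summit was 225 bp upstream of the 5′ end of C34D1.5a.1, also in an intron.

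Neither of these zip-5 regions ranked lower than 644 in a replicate list, and both had higher values in replicate 2. The third zip-5 region, at 13262954 to 13263343, was intergenic, 1396 bp upstream of the outermost 5′ end. It had 34.97 in the pooled list (rank 2333), 6.74 in replicate 1 (rank 9740) and 29.95 in replicate 2 (rank 1258), so replicate 1 alone would have placed it low. No other coding gene lies within 5 kb upstream of zip-5; the nearest, C34D1.4, starts 5233 bp away and points in the other direction.

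In zip-1 (WBGene00006986, chrIII:12333745-12345384, plus strand), which has 5 distinct coding 5′ ends, the strongest region was at 12335407 to 12335796. Its pooled signal value was 81.8 (rank 419), with 26.96 in replicate 1 (rank 800) and 61.9 in replicate 2 (rank 223). The summit lay 41 bp upstream of the 5′ end of transcript Y75B8A.35b.3 and 143 bp upstream of that of Y75B8A.35a.2, inside an intron. The second region, at 12333894 to 12334283, had 40.8 (rank 1799), with 11.6 and 27.8 in replicates 1 and 2, and was in an intron 344 bp downstream of the outermost 5′ end. Replicate 2 gave the higher value at both zip-1 regions, and replicate 1 put the second at rank 3786, beyond the number of IDR peaks.

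The neighbour upstream of zip-1 is another bZIP gene, zip-12, on the same strand 1469 bp away. The 2 pooled regions upstream of zip-1, in an intron and a coding exon of zip-12, were weak, with signal values of 9.37 and 8.73.

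In zip-4 (WBGene00021552, chrI:3264111-3266762, minus strand) the replicates ordered the regions differently. The region at 3266573 to 3266962, with its summit 6 bp upstream of the outermost 5′ end, had a pooled signal value of 59.1 (rank 880). It had 9.24 in replicate 1 (rank 5485) and 45.3 in replicate 2 (rank 516). The region at 3265928 to 3266317, in an intron 266 bp upstream of an internal 5′ end, had 34.6 pooled (rank 2369), 16.9 in replicate 1 (rank 2002) and 16.1 in replicate 2 (rank 3592). Replicate 1 thus had its higher value at the internal region and replicate 2 at the outer one. The divergent neighbour nol-58, which encodes a protein of box C/D small nucleolar RNPs, starts 331 bp from the outermost zip-4 5′ end, and the outer region ends short of it.

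The 2 IDR regions of zip-3 (WBGene00012330, chrII:13951904-13957457, minus strand) were both intronic and weak. The region at 13956554 to 13956943 had 34.5 pooled (rank 2382), with 21.8 in replicate 1 (rank 1245) and 14.3 in replicate 2 (rank 4311). Its summit lay between the 5′ ends of the transcripts, 708 bp downstream of the outer and 757 bp upstream of the inner one. The region at 13954067 to 13954456 had 34.2 (rank 2422), with 13.7 (rank 2860) and 19.4 (rank 2702), and was 1730 bp downstream of the nearest 5′ end. A pooled region at the outermost zip-3 5′ end itself, 117 bp upstream of it, had 17.8 (rank 6259) and was not in the IDR list.

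The only region of zip-10 (WBGene00012101, chrV:11650079-11650762, minus strand) in the pooled list was at 11650731 to 11651120, with its summit 164 bp upstream of its single 5′ end. At 31.6 (rank 2710) it was among the last of the 2738 IDR peaks, and the replicates had 15.5 (rank 2336) and 17.1 (rank 3264). With the 2738 strongest regions of replicate 2 alone, zip-10 would have had no region and 5 zip genes would have been counted, against 20.5% of coding genes. The strongest pooled region of any zip gene that missed the list, in a coding exon of zip-2, had 31.3 (rank 2749). The values on either side of the list's end therefore differed little. On its upstream side zip-10 stands alone, with the next coding gene, ceh-27, 10786 bp away.

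Among the zip genes without an IDR region, zip-11 (WBGene00021082, chrIV:3311276-3313189, plus strand) had the strongest pooled region, at 18.9 (rank 5743), in its 5′ UTR 230 bp from the 5′ end. The regions nearest to its summit had 4.98 in replicate 1 (rank 16591) and 8.57 in replicate 2 (rank 9874). Stronger zip-11 regions were listed beside them, with 6.24 (rank 11294) in replicate 1, upstream of the 5′ end, and 12.4 (rank 5427) in replicate 2, 56 bp downstream of it. In zip-7 (WBGene00013100, chrIV:16502910-16505682, minus strand) the better of 2 pooled regions had 9.72 (rank 17083), in an intron 155 bp from the 5′ end, and was matched in replicate 1 only. In zip-8 (WBGene00017755, chrIII:6478955-6481243, plus strand) neither the pooled list nor that of replicate 2 had a region, and the replicate 1 list had 2 of low value, 4.40 (rank 20585) and 4.18 (rank 22197). A low-ranked region was scored but stayed outside the IDR list, and a missing one was not detected at the depth of these libraries. Absence of the factor was not shown.

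A pooled region of any strength was in the window of 8 of the 9 zip genes and of 70.2% of all coding genes. At least 2 IDR regions were listed for 5 of the 9 zip genes and for 4.24% of coding genes. With the summit required within 1000 bp upstream to 500 bp downstream of a coding 5′ end, 6 of 9 zip genes and 9.50% of coding genes had an IDR peak. The zip genes were chosen with such results known, so these shares are set side by side without a test.

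**Figure D2:**
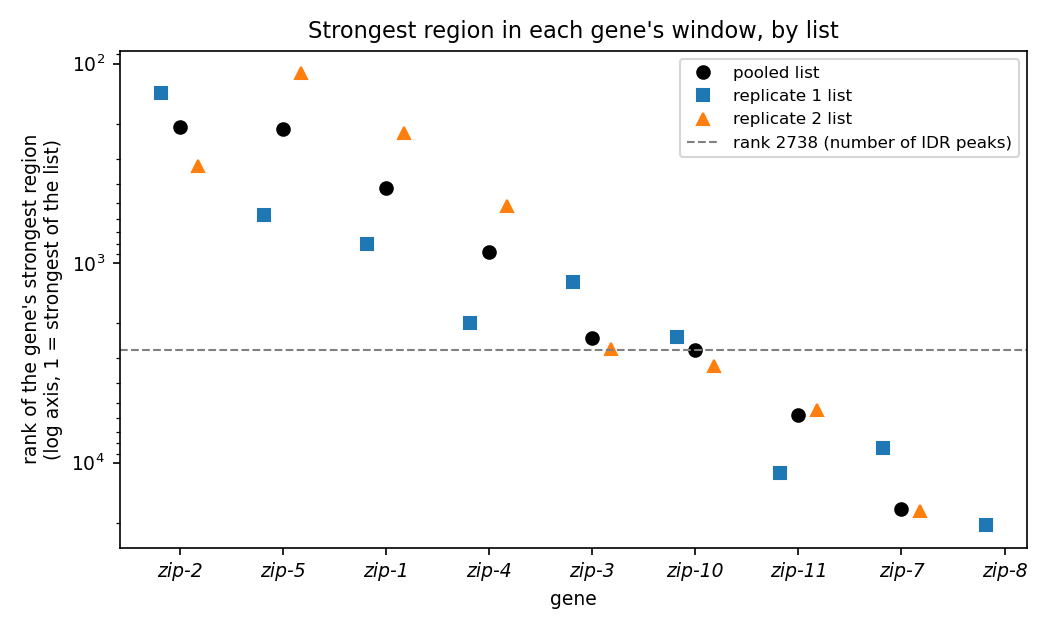
Rank of the strongest region in each zip gene's window (log axis, 1 is the strongest of the list) in the pooled list and in each replicate list; the dashed line is rank 2738, the number of IDR peaks. zip-2, zip-5 and zip-1 lead in all 3 lists, and zip-11, zip-7 and zip-8 lie below the line in each list that holds them.

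By their strongest region the zip genes ran zip-2, zip-5, zip-1, zip-4, zip-3, zip-10, zip-11 and zip-7 in the pooled list. In replicate 1 the first was zip-2 (rank 141), followed by zip-5 (573) and zip-1 (800), with zip-3 (1245) ahead of zip-4 (2002). In replicate 2 the first was zip-5 (rank 112), followed by zip-1 (223) and zip-2 (328), with zip-4 (516) well ahead of zip-3 (2702). The order among zip-2, zip-5 and zip-1, and that of zip-3 and zip-4, therefore changed between replicates. The 6 zip genes with an IDR region stood ahead of the other 3 in both replicates, where zip-8 was not listed at all in replicate 2. This order is largely built in, because the replicate lists were inputs to the IDR list.

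All 13 IDR regions had a replicate region within 200 bp in both lists. The signal value was higher in replicate 2 at 10 of them, and at 78.9% of all matched IDR peaks. At the zip genes the ratio of replicate 2 to replicate 1 had a median of 1.83, from 0.656 at a zip-3 region to 7.47 at the 5′ UTR region of zip-2. The scores of separate lists may differ in scale, so this ratio is read against that of all peaks. Over the 2702 IDR peaks matched in both replicates the median ratio was 1.4, with a 10th percentile of 0.813 and a 90th of 2.61. The zip-2 5′ UTR region (7.47), the outer zip-4 region (4.90) and the upstream zip-5 region (4.44) were above that 90th percentile, and one zip-3 region (0.656) was below the 10th.

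**Figure D3:**
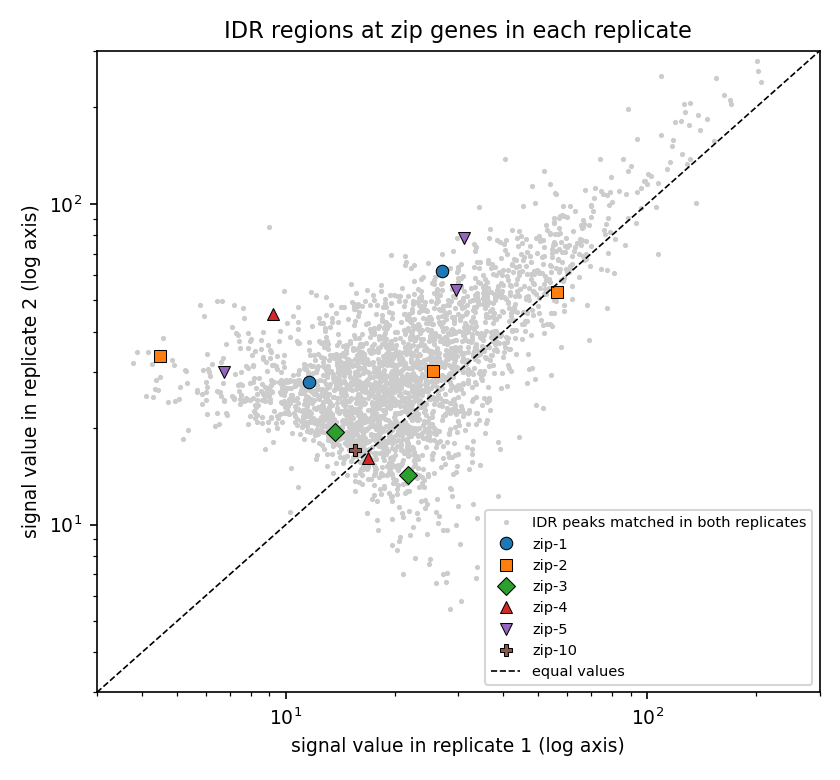
Signal value of the 13 IDR regions at zip genes in replicate 1 (horizontal) and replicate 2 (vertical), both on log axes, over all matched IDR peaks in grey; the dashed line marks equal values. The 3 points furthest to the left are the 5′ UTR region of zip-2, the upstream region of zip-5 and the outer region of zip-4, which replicate 1 ranked low.

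Of the 13 IDR summits at zip genes, 9 were within the body of the zip gene, 3 were upstream and 1 was past the 3′ end. Over the 2497 pairs of a coding gene and an IDR region in its window to which that gene's 5′ end is the nearest, 29.3% of summits were in the gene body, 68.2% upstream and 2.44% past the 3′ end. The distance to the nearest own coding 5′ end ranged from 6 to 1730 bp with a median of 262 bp. For 7 of the 13 regions that 5′ end was an internal one, as in 18.7% of the same 2497 pairs, which include genes with 1 coding 5′ end only. Among zip genes with an IDR region and more than 1 coding 5′ end, the strongest region was nearest to an internal 5′ end in 3 of 5 (zip-1, zip-2 and zip-5). Of 1506 coding genes with an IDR region in the window and 2 or more coding 5′ ends, this was so in 353 (23.4%). That set was not limited to regions whose nearest coding 5′ end was the gene's own, as it was for all 13 zip gene regions. Nor was it matched for the number of 5′ ends. The 5′ ends are those of the annotation, and their use in these larvae was not measured.

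The zip genes with and without an IDR region also differed in their gene models. Of the 6 with one, 5 had more than 1 distinct coding 5′ end and the median gene length was 4058 bp. Of the 3 without, 1 (zip-8, whose 5′ ends are 6 bp apart) had more than 1, and the median length was 2289 bp. The lengths overlapped, since zip-10 (684 bp), the shortest of all, and zip-4 (2652 bp) had a region and zip-7 (2773 bp) had none. The median length of all coding genes was 2027 bp. In window length, the zip genes with a region ran from the 9.9 (zip-10) to the 96.3 percentile (zip-1) of all coding genes. Those without ran from the 47.1 (zip-11) to the 64.6 percentile (zip-7). The shares of all coding genes were not matched for length. Over all coding genes, an IDR region was in the window of 17.9% of the 14723 genes with 1 coding 5′ end, of 28.7% of the 5250 with 2 or more and of 34.3% of the 1939 with 3 or more. An IDR summit was in a promoter of 7.48, 15.2 and 20.0% of these genes. Each further 5′ end adds a promoter to those searched, and whether this accounts for the rise was not tested. The gap to the next coding gene upstream ranged from 331 bp (zip-4, nol-58) to 10786 bp (zip-10, ceh-27) in those with a region, and from 889 bp (zip-7) to 3712 bp (zip-11, W08E12.9) in those without, so the ranges overlapped. The part of gene length and 5′ end number in the zip genes' share was not tested.

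Sequence patterns were counted over the whole regions, all of which were 390 bp wide at zip genes. The GATA site was in 12 of the 13 regions (92.3%), against 49.1% of 2662 IDR regions of this width and 38.6% of 17626 lower-ranked pooled regions that overlap no IDR peak. The one without it was the strongest zip-2 region. Within 50 bp of the summit the GATA site was in 4 of 13 windows (30.8%), against 24.0% of all IDR windows and 14.2% of lower-ranked ones, so most of the matches lay further out in the region.

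The other patterns were found in fewer regions. The AP-1 site was in 3 whole regions (23.1%), at zip-1, zip-3 and zip-5, against 7.96% of IDR regions and 5.33% of lower-ranked ones. The CARE was in 3 (23.1%), at zip-2, zip-3 and zip-10, against 2.7% and 1.74%. The C/EBP-like pattern TTGCNNAA was in 5 (38.5%), against 30.7% and 36.0%. The GAGA repeat was in 1 (7.69%), against 15.6% and 5.85%. The CRE TGACGTCA, the PAR site TTACGTAA and the E-box CACGTG were in none of the 13, against 3.08%, 0.225% and 15.2% of IDR regions. No searched pattern contains another, though matches can share bases, and a match of letters is not a measured site.

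**Figure D4:**
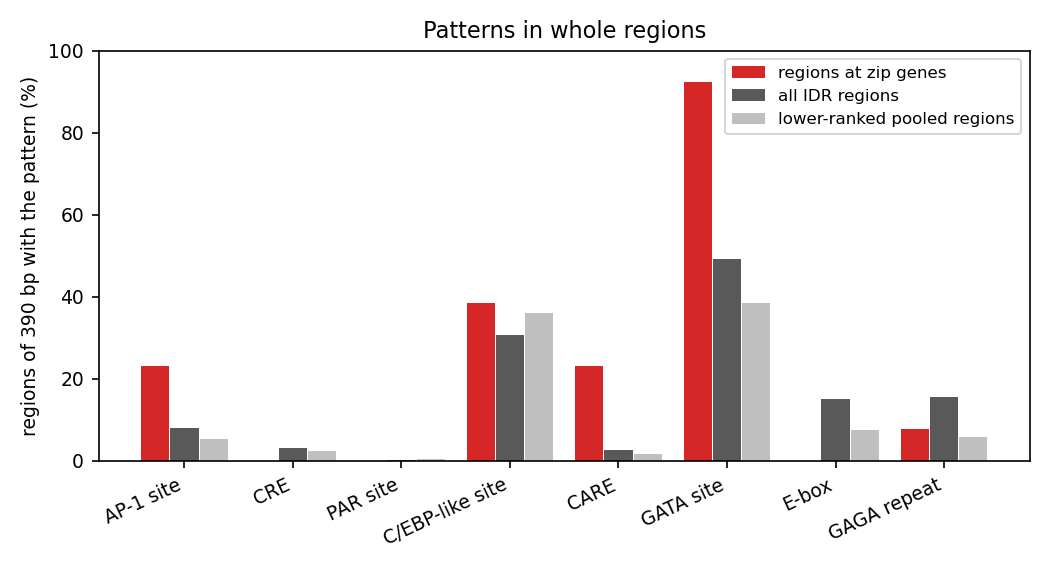
Share of regions of 390 bp that hold each pattern (%), for the 13 IDR regions at zip genes (red), the 2662 IDR regions of that width (dark grey) and the 17626 lower-ranked pooled regions (light grey). The GATA site is in 92.3% of the zip gene regions, and no zip gene region holds the CRE, PAR site or E-box.

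The remaining AP-1 and CARE matches are shown with 12 bases on each side, on the strand of the gene, with the pattern in capitals. The AP-1 site at zip-3 began 163 bases downstream of its summit and that at zip-5 began 115 bases upstream, in the intergenic region of rank 2333. The CARE began 129 bases upstream of the 5′ UTR summit of zip-2 and 112 bases downstream of that of zip-10. None of these lay within 50 bp of a summit.
AP-1 site, zip-3 rank 2422, chrII:13954081-13954111, minus strand: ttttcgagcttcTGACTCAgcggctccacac
AP-1 site, zip-5 rank 2333, chrV:13263022-13263052, plus strand: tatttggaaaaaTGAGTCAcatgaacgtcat
CARE, zip-2 rank 2095, chrIII:832907-832938, plus strand: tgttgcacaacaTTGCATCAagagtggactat
CARE, zip-10 rank 2710, chrV:11650795-11650826, minus strand: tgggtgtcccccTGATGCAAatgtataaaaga

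GC content in the 101 bp around the 13 summits ran from 33.7 to 57.4% with a median of 42.6%, against a median of 43.6% over all IDR windows, whose 10th and 90th percentiles were 32.7 and 54.5%. Only the strongest zip-2 region lay outside that range. The zip gene regions were therefore spread over the GC content of the whole list.

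A list of other bZIP genes of C. elegans, which is not a complete set, was counted by the same rule. Of 20 gene names listed, 19 were found in the annotation. Of these 19 genes, 14 had an IDR region in the window, against 20.7% of all coding genes. At least 2 were listed for 10 of the 19, against 4.24%. The strongest were at cebp-1, a C/EBP-type gene (275.8, rank 20), fos-1, the FOS partner of JUN-1 (220.1, rank 32), and xbp-1 of the endoplasmic reticulum stress response (137, rank 110), each above the strongest zip gene region. The zip genes outside the 9, zip-12 (53.8, rank 1050) and zip-9 (44.7, rank 1553), had an IDR region, and zip-6 had none. The jun-1 gene itself had no IDR region in its window.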

How the data were processed

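ChIP-seq regions from 2 replicates of 1 group were used as deposited by the authors, in narrowPeak lists on ce11. Per the labels' accompanying text files, a replicate list was made from 1 replicate's alignments with a control, the pooled list from both replicates together, and the IDR list from these 3 lists. The aligner, peak caller, versions and read depth are not stated in the sources used. The authors' signal score ranked regions within a list. The deposited −log10 q was not used for ranking, since 2677 of 2738 IDR peaks share its highest value, 3.73. Lists on ce10 and controls were not analysed here. Chromosome names matched WBcel235, and no region ran past a chromosome's end.

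Windows, promoters, 5′ ends and annotation came from Ensembl release 115, and sequences from the RefSeq genome of WBcel235. Replicate regions were matched by the nearest summit within 200 bp. Summits are those given in the lists, at the centre of the region for all 13 IDR regions of the members. Both strands were searched for 8 patterns, up to 50 bp from each summit and over whole regions. The members, lists and patterns were chosen with earlier results of these data known. The genes named are the 9 members, coding genes beside them or holding their regions, and the 3 other listed bZIP genes with the strongest region. The genes zip-6, zip-9, zip-12 and jun-1 were added after their values were seen. No test was run. Counts of members are set beside shares over all coding genes or regions where these were computed. Overlap counting was tested on simulated data. Python 3.11.15, numpy 2.4.6, pandas 2.3.3 and matplotlib 3.10.9 were used.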

Additional observations from a re-analysis of the deposited data

How the results depend on the processing

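No paired analysis was possible because both replicates belong to 1 group. The same 6 zip genes had an IDR region with windows from 2 kb or 10 kb upstream, with the summit required in the window, with each region given to its nearest 5′ end only, and, added after seeing the data, in the gene body alone, where the share of all coding genes was 14.6, 29.3, 19.7, 11.0 and 7.14%. In the gene body alone zip-10 counted only because its region overlapped the gene's 5′ end, with the summit 164 bp upstream. With the 1369 strongest IDR peaks only, 4 zip genes remained (zip-1, zip-2, zip-4 and zip-5, against 11.6% of coding genes). With the 2738 strongest regions of 1 replicate the count ran from 5 without replicate 1, where zip-10 was lost, to 6 without replicate 2 (20.5 and 19.8% of coding genes). The promoter count ran from 4 without replicate 1, where zip-3 and zip-10 were lost, to 6 without replicate 2 (9.43 and 8.85%). It was 5 with 500 bp upstream to 250 bp downstream (7.29%), 6 with 2000 bp upstream to 1000 bp downstream (12.8%) and 4 with the 1369 strongest peaks (4.95%). A pooled region was listed for 7 zip genes with the stronger 10410 pooled regions (49.7% of coding genes) and for 8 from 2 kb upstream (57.5%). The strongest region ranked within the first 2738 for 5 zip genes without replicate 1 and 6 without replicate 2, against 6 in the pooled list. Between 12 and 15 IDR regions were counted across windows, against 13. Any searched pattern was in 7 of 13 windows around the summits (43.1% of all IDR windows) and in 13 of 13 whole regions (78.6% of all IDR regions), a comparison added after seeing the data that searches longer sequence. The lists hold no read depth, so no interval could be given.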
